A study of Homo sapiens with 12 samples.

Results

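The 10 genes described here belong to the transcriptional end of the Hippo pathway and were chosen by name: CTGF (also called CCN2), CYR61 (CCN1), ANKRD1, AXL, AMOTL1, AMOTL2, LATS2, TEAD1, YAP1 and WWTR1. They are 10 of the 58676 genes in the deposited expression table, and each name matched 1 row. The label under which they were grouped, targets of YAP and TEAD, fits 7 of them as textbook targets. YAP1, WWTR1 and TEAD1 are the factors themselves. RNA was sequenced from A549, an established human lung carcinoma line of epithelial origin. The control line (genotype Control1) and a pair of lines with a knockout of the transcription factor gene NFE2L1 (genotypes NFE2L1 KO1 and NFE2L1 KO2) were each given DMSO vehicle or 200 nM of the proteasome inhibitor bortezomib for 4 h. Each of the 6 groups had 2 libraries, 12 in all. Each genotype was 1 line, and the sources used here do not state whether a line was a clone. They also do not say that the 2 libraries of a group came from separate cultures, so p-values measure the spread between libraries only.

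In the Hippo pathway the kinases STK3 and STK4, with the scaffold SAV1, activate LATS1 and LATS2. These kinases, with their MOB1 partners, phosphorylate the coactivators YAP (gene YAP1) and TAZ (gene WWTR1), which are then kept in the cytoplasm or degraded. Coactivators that escape phosphorylation enter the nucleus and bind DNA through TEAD factors, whose known binding site holds the letters GGAATG, or CATTCC on the other strand. CTGF and CYR61 are among the best known targets, and LATS2 and the angiomotin family are targets that in turn restrain YAP. RNA libraries measure neither the phosphorylation nor the location of these proteins.

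Windows around RefSeq transcription starts of the genes, 250 bases before to 50 after the start (assembly GRCh38.p14), were searched for GGAATG and CATTCC. The pair are 1 motif read on both strands, so the search has no overlap with another motif. Of the 10 genes 8 had windows, 11 in all, and CYR61 and TEAD1 had no entry. A match was found for 6 genes, in 6 of the 11 windows. Among all 35116 windows of that length 14.0% held at least 1 match, 1.37% at least 2 and 0.128% at least 3. CTGF had 3 matches, 169, 104 and 95 bases before its start. ANKRD1 had 2, at 220 and 128 bases before the start. AXL, AMOTL2 and YAP1 had 1 each, 212, 69 and 162 bases before a start, and LATS2 had 1, 9 bases after it. No match was found in the windows of WWTR1 and AMOTL1, or in 1 of the 2 windows of AXL and of AMOTL2. The stretches that hold the matches are printed 5′ to 3′ on the strand of the gene, with each match in capitals. They show how the matches are spaced in the CTGF promoter, and 1 or 2 sites for each of the other genes.
CTGF promoter (chr6:131951374-131951622, minus strand): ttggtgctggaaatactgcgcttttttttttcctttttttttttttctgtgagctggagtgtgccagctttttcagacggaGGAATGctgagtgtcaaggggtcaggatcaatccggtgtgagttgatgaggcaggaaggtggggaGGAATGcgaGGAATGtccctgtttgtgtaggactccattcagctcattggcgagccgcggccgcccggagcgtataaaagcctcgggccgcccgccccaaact
ANKRD1, distal match (chr10:90921290-90921319, minus strand): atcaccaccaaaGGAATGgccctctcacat
ANKRD1, proximal match (chr10:90921198-90921227, minus strand): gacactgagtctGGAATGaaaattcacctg
AXL (chr19:41226531-41226560, plus strand): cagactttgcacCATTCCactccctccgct
AMOTL2 (chr3:134374499-134374528, minus strand): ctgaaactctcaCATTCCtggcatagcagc
YAP1 (chr11:102110273-102110302, plus strand): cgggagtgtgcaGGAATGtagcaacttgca
LATS2 (chr13:21061560-21061589, minus strand): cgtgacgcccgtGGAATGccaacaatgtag
The CTGF stretch ends next to the annotated start of the gene, and 2 of its matches lie close together. The proximal ANKRD1 match and the AMOTL2 match lie inside an annotated exon of another transcript of the same gene, and the AXL match inside an intron. The YAP1 match overlaps an annotated gene on the opposite strand. A match describes the letters in these windows and says nothing of TEAD binding, which was not measured.

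Expression was deposited as FPKM, fragments scaled to the length of the gene and the depth of the library, a level that may be compared between genes. The libraries held 13211608 to 23819258 reads assigned to genes. NFE2L1 itself, the targeted gene, had an FPKM of 72.7 to 189 in the 4 control libraries and of 8.45 to 50.8 in the 8 libraries of the KO lines, without overlap. An antisense gene overlaps it, and whether counting used strand is not given in the sources used here. The epithelial markers KRT7, KRT8, KRT18, EPCAM and CDH1 were detected in all 12 libraries, with summed FPKM of 509 to 1791 in vehicle and 552 to 1801 in bortezomib. Of 4 markers of other cell types PTPRC (leukocytes), PECAM1 (endothelium) and DCN (fibroblasts) were at or near 0, and COL1A1 (fibroblast collagen) reached 23.3. The summed level of these 4 was 1.52 to 5.23 in vehicle and 6.11 to 23.4 in bortezomib. Nearly all of it was COL1A1, with 1.42 to 5.18 in vehicle and 6.10 to 23.3 in bortezomib. PTPRC, PECAM1 and DCN did not exceed 0.0602 in any library. The sum thus moved with the drug through COL1A1, and its part in the results was not tested. The 6 libraries with R2 in their titles stood apart from the other 6, which carry R1 in the KO lines and no number in the control line. Their mitochondrial share of reads was 12.3% to 19.3%, against 5.44% to 6.80% in the others, so values are given below for each library. In bulk RNA, fewer cells with a transcript and less of it per cell cannot be told apart.

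Averaged over the 12 libraries, CYR61 (ENSG00000142871, chr1:85580761-85583962, plus strand) had the highest level of the 10, with a mean FPKM of 95.9. AXL (ENSG00000167601, chr19:41219203-41261766, plus strand) followed at 76.1. Next came CTGF (ENSG00000118523, chr6:131948176-131951373, minus strand) at 26.7, TEAD1 (ENSG00000187079, chr11:12674591-12944483, plus strand) at 25.8 and AMOTL2 (ENSG00000114019, chr3:134355874-134375479, minus strand) at 19.7. WWTR1 (ENSG00000018408, chr3:149517235-149736714, minus strand) had a mean FPKM of 13 and YAP1 (ENSG00000137693, chr11:102110461-102233423, plus strand) of 9.97. The lowest mean levels were those of ANKRD1 (ENSG00000148677, chr10:90912096-90921276, minus strand) at 7.54, LATS2 (ENSG00000150457, chr13:20973032-21061547, minus strand) at 7.35 and AMOTL1 (ENSG00000166025, chr11:94706431-94876753, plus strand) at 4.15. Between every pair of neighbours in this order the ranges over the 12 libraries overlapped. Positions are those of the deposited table, on GRCh38. ANKRD1 was counted from 46 to 1074 reads per library and every other gene from at least 298. Genes that overlap 8 of the 10, on either strand, held at most 11.2 reads on average (WWTR1-AS1, against 2024 for WWTR1), and no annotated gene overlaps CYR61 or ANKRD1.

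**Figure D1:**
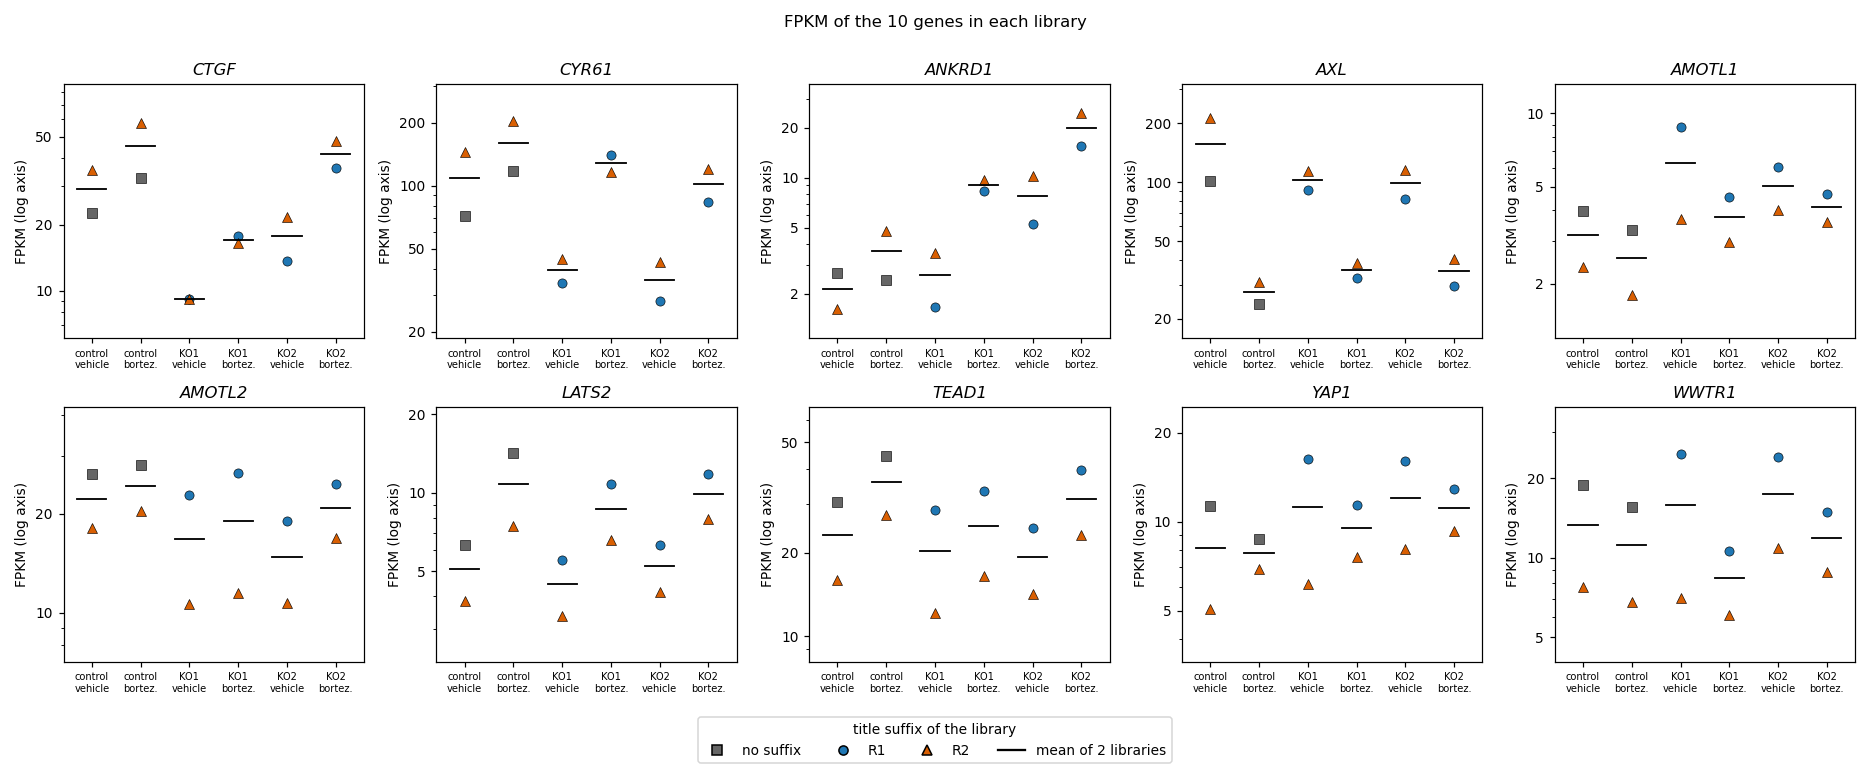
FPKM of each of the 10 genes (vertical log axes, 1 panel per gene) in the 12 libraries, by line and treatment on the horizontal axis, with a marker for the suffix of the library and a bar for the mean of the 2 libraries. AXL falls from 82.0 to 212 in the 6 vehicle libraries to 23.9 to 40.7 with bortezomib, while CYR61 in the KO lines runs the other way.

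With bortezomib, 4 of the 10 genes were called higher and 1 lower when the response was averaged over the 3 lines. CTGF, CYR61, ANKRD1 and LATS2 were called higher than in vehicle, and the receptor AXL lower. The mean fold change was above 0 for 6 of the 10 genes, called or not. Each was tested with limma on log2(FPKM + 1) across the 12194 genes whose mean FPKM reached 1, and called at a Benjamini-Hochberg adjusted p under 0.05. The 4 genes called higher and 1 called lower compare with 4.85% of all tested genes called higher and 6.76% called lower, 11.6% together. Libraries that share R2, or R1 or no number, deviated together in this series, so the fit was repeated with this replicate suffix as a block. With the block 9 of the 10 genes passed, 6 higher and 3 lower, against 54.9% of all genes (27% higher and 27.9% lower). How many of all genes show no overlap between groups, or move the same way in every pair, was not counted. Such statements below describe single genes.

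The matricellular proteins CTGF and CYR61 are secreted into the matrix and act on adhesion and wound repair. In the control line CTGF had an FPKM of 22.6 and 35.3 in vehicle and of 32.7 and 57.9 with bortezomib, the second value of each pair being the R2 library. In KO1 it had 9.18 and 9.17 in vehicle and 17.8 and 16.4 with bortezomib, and in KO2 13.7 and 21.6 against 36.1 and 47.8. The treatments overlapped in the control line and not in the KO lines, and the ratio of bortezomib to vehicle within a pair of like suffix was 1.45 to 2.64, above 1 in 6 of 6 pairs. Its mean log2 fold change was 0.89 (limma, SE 0.24, adjusted p 0.0403).

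CYR61 had an FPKM of 71.6 and 145 in control vehicle and of 117 and 205 in control bortezomib. In KO1 the values were 34.3 and 44.5 in vehicle and 141 and 117 with bortezomib. In KO2 they were 28.0 and 43.2 in vehicle and 83.3 and 120.3 with bortezomib. The treatments did not overlap in KO1 or KO2, and did in the control line. The ratios ran from 1.41 in the R2 pair of the control line to 4.10 in the R1 pair of KO1, and all 6 were above 1. The mean log2 fold change was 1.26 (limma, SE 0.29, adjusted p 0.0236).

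ANKRD1 encodes a nuclear ankyrin repeat protein known from stressed muscle and had the fewest reads of the 10 in a single library. Its FPKM was 2.65 and 1.62 in control vehicle and 2.41 and 4.80 in control bortezomib. KO1 had 1.67 and 3.54 in vehicle and 8.38 and 9.72 with the drug, and KO2 had 5.25 and 10.3 in vehicle and 15.6 and 24.6 with it. Vehicle and bortezomib overlapped in the control line alone, where the unnumbered pair had a ratio of 0.908 and the R2 pair of 2.96. The ratios in the KO lines were 2.38 to 5.0. Its average rise was 1.11 on the log2 scale (limma, SE 0.25, adjusted p 0.0201).

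LATS2, the kinase that restrains YAP and is itself a target, had the narrowest range of ratios among the 4 genes called higher. Vehicle levels of 6.32 and 3.82 FPKM were measured in control cells, of 5.52 and 3.37 in KO1 cells and of 6.27 and 4.14 in KO2 cells. Bortezomib libraries of those lines had 14.2 and 7.43 (control), 10.8 and 6.59 (KO1) and 11.8 and 7.96 (KO2). The treatments did not overlap in any of the 3 lines, and the 6 ratios lay between 1.88 and 2.24. Its mean log2 fold change of 0.85 (limma, SE 0.24, adjusted p 0.0486) was just past the threshold, and each R2 library was lower than its partner. With the block the SE was 0.07 and the adjusted p 2.38e-05.

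AXL encodes a receptor tyrosine kinase for GAS6 that is linked to survival and drug resistance in lung cancer cells. Vehicle libraries had 102 and 212 FPKM in control cells, 91.6 and 114 in KO1 cells and 82.0 and 115 in KO2 cells. Bortezomib libraries had 23.9 and 30.8 in control cells, 32.4 and 38.8 in KO1 cells and 29.5 and 40.7 in KO2 cells. Every bortezomib library was below every vehicle library, and the ratios were 0.145 to 0.359. AXL fell by a mean of 1.79 on the log2 scale (limma, SE 0.27, adjusted p 0.00347), opposite in direction to the other 4 called genes.

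AXL was called whichever of the 12 libraries was left out (adjusted p 0.0046 to 0.0169, limma). CTGF lost its call in 10 of these 12 fits (adjusted p 0.0472 to 0.109) and LATS2 in 11 (0.0432 to 0.134). CYR61 lost it in 7 (0.0235 to 0.0744) and ANKRD1 in 5 (0.0203 to 0.0578). These fits had no block, so the group that lost a library kept only 1 suffix, which mixed the R2 difference into the response. Their log2 fold changes were 0.75 to 1.02 for CTGF, 1.09 to 1.43 for CYR61 and 0.97 to 1.26 for ANKRD1. LATS2 had 0.71 to 0.996 and AXL -1.96 to -1.61. With all 12 libraries and the replicate block all 5 passed in limma, with adjusted p-values from 3.29e-06 for AXL to 0.00032 for ANKRD1.

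Of the 3 factor genes none was called without the block. TEAD1, which encodes the DNA-binding partner, had an FPKM of 30.3 and 16.0 in control vehicle and of 44.6 and 27.4 in control bortezomib. In KO1 it had 28.5 and 12.1 against 33.3 and 16.4, and in KO2 24.5 and 14.2 against 39.6 and 23.1. The treatments overlapped in every line, yet bortezomib was higher in 6 of 6 pairs, by ratios of 1.17 to 1.71. Its mean log2 fold change was 0.54 (limma, SE 0.33, adjusted p 0.34), with an adjusted p of 0.000839 in the fit with the block. YAP1 and WWTR1 encode the coactivators. YAP1 had an FPKM of 5.05 to 16.2 over all libraries and a mean log2 fold change of -0.04 (SE 0.30, adjusted p 0.949, and 0.802 with the block). The ratio of bortezomib to vehicle was 1.15 to 1.37 in its 3 R2 pairs and 0.703 to 0.808 in the other 3. WWTR1 ranged from 6.08 to 24.7 and was lower with bortezomib in 6 of 6 pairs, by ratios of 0.431 to 0.881. Its mean log2 fold change was -0.45 (limma, SE 0.39, adjusted p 0.526, and 0.0159 with the block).

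The angiomotin-like proteins AMOTL1 and AMOTL2 bind YAP and hold it at cell junctions, and their RNAs had fold changes of opposite sign. AMOTL1 ranged from 1.80 to 8.80 FPKM and was lower with bortezomib in 6 of 6 pairs, by ratios of 0.518 to 0.890. AMOTL2 ranged from 10.7 to 28.1 and was higher in 6 of 6 pairs, by ratios of 1.06 to 1.58. Their mean log2 fold changes were -0.33 for AMOTL1 (limma, SE 0.24, adjusted p 0.433, and 0.0239 with the block) and 0.26 for AMOTL2 (SE 0.30, adjusted p 0.653, and 0.0481 with the block). AMOTL2 was not called with unnumbered libraries set to R1 (limma, adjusted p 0.0675).

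**Figure D2:**
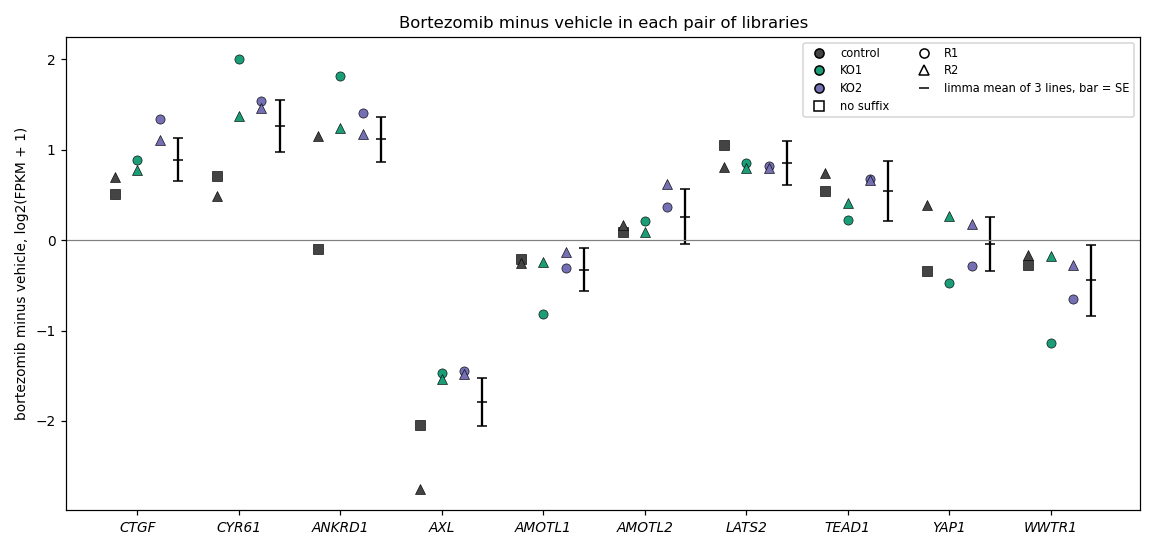
Difference of log2(FPKM + 1) between bortezomib and vehicle (vertical axis) for each of the 10 genes, as 6 points per gene, 1 per pair of libraries of the same line and suffix, beside the limma mean with its SE as a bar. All 6 AXL points lie between -2.75 and -1.45, while the LATS2 points lie within 0.80 to 1.05 and the YAP1 points on both sides of 0.

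Within single lines none of the 10 genes was called without the block, where limma called 0.467% of all genes for the control line, 0.238% for KO1 and 0.32% for KO2. An unadjusted p under 0.05 was reached by 1 gene in control cells (AXL), by 3 in KO1 (CYR61, ANKRD1 and AXL) and by 4 in KO2 (CTGF, CYR61, ANKRD1 and AXL). Of all 12194 tested genes 1498 reached it in control cells, 1153 in KO1 and 1169 in KO2. On the recovered reads voom (limma's model for counts) also called 0 of the 10 in each line. With the block 4 passed for the control line against 32.4% of all genes, 5 for KO1 against 27.7% and 6 for KO2 against 27%. AXL and LATS2 were called in each line with the block. AXL had log2 fold changes of -2.40 (control), -1.5 (KO1) and -1.46 (KO2) (limma with the block, adjusted p 9.69e-05, 0.000726 and 0.000745). LATS2 had 0.93, 0.83 and 0.81 (0.00105, 0.00238 and 0.00246).

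CTGF was also called in each line with the block by suffix, with log2 fold changes of 0.61 (control), 0.83 (KO1) and 1.22 (KO2) (limma with the block, adjusted p 0.0366, 0.0124 and 0.00227). The control call was lost when unnumbered libraries were set to R1 (limma, adjusted p 0.0576). With a library left out, and no block, the control value ran from 0.20 (without control bortezomib R2) to 1.01 (without the unnumbered control bortezomib library). CYR61 and ANKRD1 passed in the KO lines. For CYR61 the control, KO1 and KO2 values were 0.60, 1.69 and 1.5 (limma with the block, adjusted p 0.0557, 0.000865 and 0.00141). For ANKRD1 they were 0.52, 1.52 and 1.29 (adjusted p 0.162, 0.00389 and 0.00848). TEAD1 passed in the control line and in KO2, with log2 fold changes of 0.64 and 0.67 (adjusted p 0.0132 in each, with the block), and had 0.31 in KO1 (adjusted p 0.159). These lists do not show that the lines differ, and the difference itself is tested further on.

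In vehicle, CTGF and CYR61 were at lower levels in both KO lines than in the control line. CTGF had an FPKM of 9.17 to 21.6 in the 4 KO libraries and of 22.6 and 35.3 in the control. CYR61 had 28.0 to 44.5 in the KO libraries and 71.6 and 145 in the control. For both genes every KO library was below every control library, and the share of all genes that separate in this way was not counted. Without the block none of the 10 genes was called by limma in KO1, KO2 or their mean, where 0.213%, 0.23% and 0.344% of all genes were called. An unadjusted p under 0.05 was found for CTGF and CYR61 in KO1 and in the mean and for CYR61 and ANKRD1 in KO2. These 2 genes each time compare with 538 of the 12194 tested genes in KO1, 433 in KO2 and 561 in the mean. The count model voom called 0 of the 10 in each. In the fit with the block 2 of the 10 passed in KO1, 3 in KO2 and 2 in the mean, against 5.95%, 4.91% and 6.18% of all genes. Because R1 occurs only in the KO lines and the unnumbered libraries only in the control line, that block compares KO with control mainly through the R2 libraries. The KO1 and KO2 comparisons share the control libraries. Epithelial markers differed between the same libraries. The ratio of KO to control in vehicle was 1.53 to 3.30 for KRT8, 1.44 to 3.01 for KRT18, 1.26 to 3.17 for EPCAM and 1.05 to 2.55 for CDH1, each above 1 in 4 of 4 pairs. KRT7 had 0.863 to 1.09. With the block 4 of these 5 markers were called higher in the mean of KO lines and without it 0, and their part in the result was not tested.

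The ratio of CTGF in a KO library to the control library of like suffix (R2 with R2, R1 with the unnumbered one) came to 0.260 and 0.406 for KO1, and to 0.614 and 0.607 for KO2. Its log2 fold change was -1.52 in KO1 (limma, SE 0.41, adjusted p 0.389) and -0.68 in KO2 (SE 0.41, adjusted p 1). With the block it was -1.77 in KO1 (SE 0.22, adjusted p 0.00286) and -0.92 in KO2 (SE 0.22, adjusted p 0.0494). The KO2 call was lost with unnumbered libraries set to R1 (-0.68, limma, adjusted p 0.123). Over the mean of the KO lines it was -1.10 (adjusted p 0.591) without the block and -1.35 (adjusted p 0.00595) with it.

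CYR61 had ratios of 0.306 and 0.478 in KO1 and of 0.297 and 0.391 in KO2. The log2 fold changes were -1.36 in KO1 and -1.53 in KO2 (limma, SE 0.51 each, adjusted p 0.892 and 0.716). With the block they were -1.66 and -1.82 (SE 0.25 each, adjusted p 0.00632 and 0.00389). Over the mean of the KO lines the values were -1.44 without the block (adjusted p 0.512) and -1.74 with it (adjusted p 0.00289).

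ANKRD1 was not lower in the KO lines. Its vehicle levels of 5.25 and 10.3 in KO2 were above both control libraries, 2.65 and 1.62, while those of KO1, 1.67 and 3.54, overlapped the control. The log2 fold change was 1.44 in KO2 (limma, SE 0.43, adjusted p 0.536, and 1.68 with adjusted p 0.0172 in the fit with the block). In KO1 it was 0.17 (SE 0.43, adjusted p 1) and 0.40 (adjusted p 0.503).

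In limma the other genes did not pass in the mean of KO lines, without the block or with the block by suffix (AMOTL1 passed when unnumbered libraries were set to R1). With voom and the block AXL (adjusted p 0.0139), AMOTL2 (adjusted p 0.00997) and AMOTL1 passed, and voom's share of all genes is not given here. AXL was lower in 4 of 4 pairs, by ratios of 0.537 to 0.900, and its mean log2 fold change was -0.56 (limma, SE 0.40, adjusted p 1) or -0.72 with the block (adjusted p 0.0617). Without the R2 control vehicle library, and with no block, it was -0.03. The pairs of R1 with the unnumbered library had -0.15 in KO1 and -0.31 in KO2, and the R2 pairs -0.89 and -0.87. AMOTL2 and TEAD1 were also lower in 4 of 4 pairs, by ratios of 0.589 to 0.862 and of 0.761 to 0.938. In limma with the block AMOTL2 had an adjusted p of 0.05004, just short of the threshold. AMOTL1 was higher in 4 of 4 pairs, by ratios of 1.51 to 2.21, and YAP1 likewise, by ratios of 1.22 to 1.60. WWTR1 was higher in 3 of 4 pairs. LATS2 differed least, with a mean log2 fold change of -0.06 without the block and 0.03 with it.

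**Figure D3:**
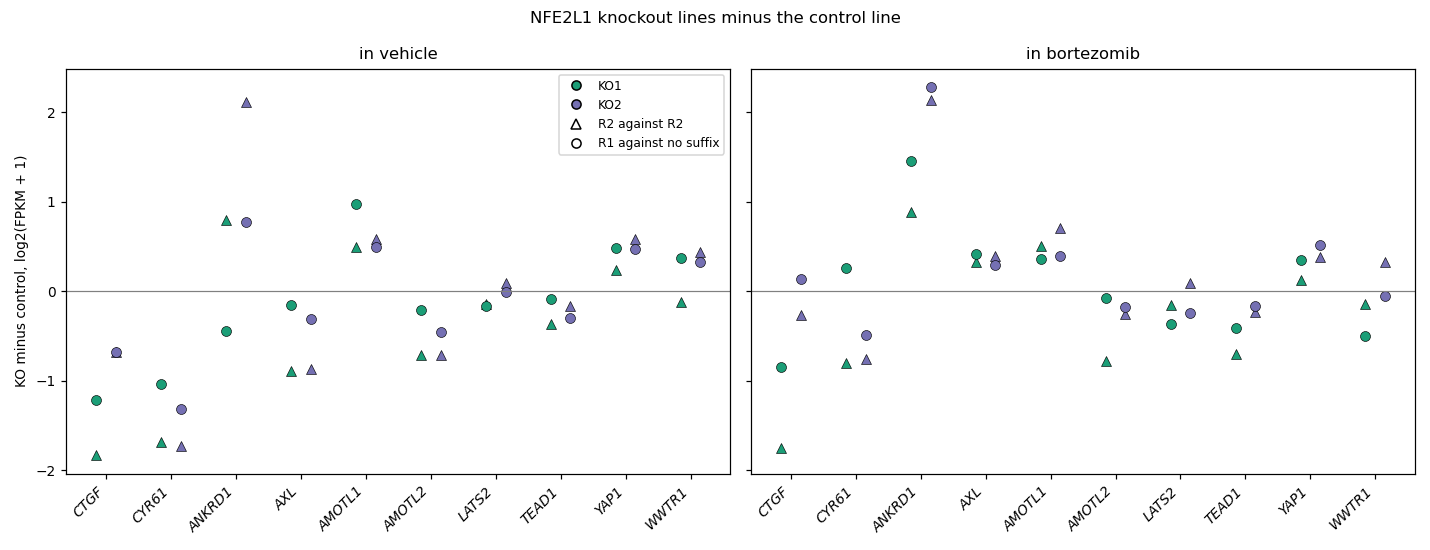
Difference of log2(FPKM + 1) between a KO library and the control library of like suffix (vertical axis) for each of the 10 genes, 4 pairs in vehicle and 4 in bortezomib. CTGF and CYR61 lie below 0 in all 4 vehicle pairs, ANKRD1 above 0 in all 4 bortezomib pairs, and AXL below 0 in vehicle and above it in bortezomib.

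The KO and control lines were also compared under bortezomib. ANKRD1 was higher in the KO lines, at 8.38 to 24.6 FPKM against 2.41 and 4.80 in the control line, without overlap and by ratios of 2.02 to 6.48. Its mean log2 fold change was 1.69 (limma, SE 0.37, adjusted p 0.188) and 1.92 in the fit with the block (SE 0.28, adjusted p 0.00569). CTGF was lower in KO1, at 17.8 and 16.4 against 32.7 and 57.9, and overlapped the control in KO2. Over both KO lines it had -0.68 (adjusted p 1) and, with the block, -0.93 (adjusted p 0.0269). CYR61, at 83.3 to 141 in the KO lines and 117 and 205 in the control, overlapped, with a mean log2 fold change of -0.45 (adjusted p 1) and -0.75 with the block (adjusted p 0.0772). Without the block none of the 10 was called by limma, against 0.164% of all genes, and voom called 0. An unadjusted p under 0.05 was reached by 1 of the 10 (ANKRD1) and by 697 of the 12194 tested genes. With the block 2 were called, against 7.66%. These comparisons again share their control libraries.

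Whether the response to bortezomib differed between KO and control lines was tested as an interaction. None of the 10 passed and 0% of all genes were called by limma, with or without the block. Those with an unadjusted p under 0.05 numbered 0 without the block and 3 with it (CYR61, ANKRD1 and AXL). Of the 12194 tested genes 115 reached it without the block and 1305 with it. Of the 10 genes voom called 0 without the block and 2 with it (CYR61 and AXL), and its share of all genes is not given here. CYR61 had an interaction of 0.99 on the log2 scale (SE 0.62, limma adjusted p 1, and 0.208 with the block). AXL had 0.91 (SE 0.56, adjusted p 1, and 0.185 with the block), ANKRD1 0.88 (adjusted p 1 and 0.365) and CTGF 0.42 (adjusted p 1 and 0.573). These values moved with single control libraries in fits without the block, in which the group that loses a library keeps only 1 suffix. CYR61 ran from 0.49 and AXL from 0.38 without the R2 control vehicle library to 1.5 and 1.44 without the unnumbered one. CTGF ran from 0.015 and ANKRD1 from 0.5 without the unnumbered control bortezomib library to 0.82 and 1.27 without the R2 one.

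The 10 genes divided by the difference between R2 libraries and their partners, which is no condition of the study. AMOTL1, AMOTL2, LATS2, TEAD1, YAP1 and WWTR1 were each lower in R2 in 6 of 6 groups, by means of -0.59, -0.74, -0.61, -0.87, -0.74 and -1.07 on the log2 scale. AXL was higher in R2 in 6 of 6 groups, CYR61 and ANKRD1 in 5 of 6 and CTGF in 4 of 6, by means of 0.48, 0.51, 0.45 and 0.39. Over all tested genes 59.5% were lower in R2, with a median of -0.21. The 4 genes higher in R2 have the 4 shortest gene models of the 10, those of ANKRD1, CTGF, CYR61 and AXL (1979, 2339, 2455 and 5154 bases). Across all 12194 genes this difference was almost unrelated to gene length (Spearman's rho -0.06, a description across genes).

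**Figure D4:**
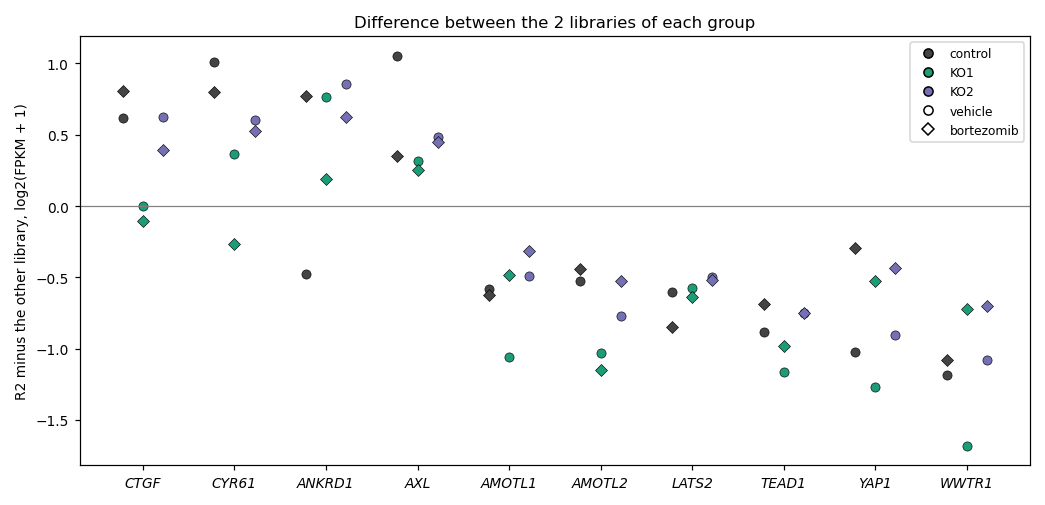
Difference of log2(FPKM + 1) between the R2 library and its partner (vertical axis) for each of the 10 genes (horizontal axis), 1 point per group, with colour for the line and shape for the treatment. Most points of CTGF, CYR61, ANKRD1 and AXL lie above 0 and all points of the other 6 genes below it, with WWTR1 lowest on average at -1.07.

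Other genes of the pathway were taken from 3 lists. The first held 22 kinases and upstream regulators of the Hippo module, of which 19 were tested (AMOT, FAT4 and DCHS1 had a mean FPKM under 1). In the mean bortezomib response 0 of these were called higher and 1 lower without the block, and 11 higher and 3 lower with it. The fold change itself was above 0 for 13 of the 19. Of all tested genes 4.85% were called higher and 6.76% lower in the first fit, and 27% and 27.9% in the blocked one. The list had a median log2 fold change of 0.34 against 0.40 for the 10 genes and -0.01 for all tested genes. LIMD1, an inhibitor of LATS kinases, was the one called without the block. It had an FPKM of 6.11 to 7.79 in vehicle and of 3.25 to 5.6 with bortezomib, without overlap, and fell by 0.55 on the log2 scale (limma, SE 0.13, adjusted p 0.0284). With the block the largest rises were those of WWC2 (a relative of the LATS activator WWC1), the LATS partner MOB1B and the scaffold SAV1, at 0.69, 0.66 and 0.63 (adjusted p 0.000292, 0.000238 and 0.00037). WWC1 and the kinase TAOK2 had -0.30 and -0.21 (adjusted p 0.0153 and 0.0432 with the block).

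The second list held 6 other TEAD factors and Vestigial-like cofactors, 5 of them tested, and VGLL1 was listed at 0 in all libraries. Without the block 1 was called higher and 0 lower, against 4.85% of all genes called higher. With it 3 were called higher and 0 lower, against 27%. TEAD3, a DNA-binding relative of TEAD1, had an FPKM of 1.23 to 2.96 in vehicle and of 6.87 to 8.36 with bortezomib. All 6 bortezomib libraries were above all 6 vehicle libraries, by ratios of 2.76 to 5.83, and TEAD3 rose by 1.39 on the log2 scale (limma, SE 0.15, adjusted p 0.000976). TEAD4 had 0.49 (adjusted p 0.299 without the block, 0.0108 with it) and the cofactor VGLL4 0.36 (0.407 and 0.012). The median of the list was 0.36.

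The third list held 16 further genes of a published YAP/TAZ target signature, 15 of them tested, and RBMS3 had a mean FPKM under 1. These targets had calls in both directions. Without the block 1 was called higher and 3 lower with bortezomib, and with it 5 higher and 7 lower. The median of the list was -0.03. These 4 and 12 of 15 compare with 11.6% and 54.9% of all genes called. GADD45A, a growth arrest and DNA damage gene, had an FPKM of 6.02 to 15.3 in vehicle and of 26.7 to 81.2 with bortezomib, a log2 fold change of 2.20 (limma, SE 0.38, adjusted p 0.00674). NT5E, the ecto-nucleotidase CD73, had 25.8 to 70.9 in vehicle and 4.83 to 16.7 with bortezomib, a change of -2.09 (SE 0.28, adjusted p 0.00214). FJX1, a relative of Drosophila four-jointed, had 26.7 to 67.9 and 4.61 to 12.9, a change of -2.04 (SE 0.28, adjusted p 0.00246). None of these 3 genes overlapped between treatments. The third gene called lower, CCDC80, lies outside the naming rule for this comparison and was picked after its values were seen, with -0.68 (SE 0.15, adjusted p 0.017). ASAP1, FOXF2 and CRIM1 had 0.49, 0.37 and -0.71, which passed in the fit with the block (adjusted p 0.000756, 0.00655 and 0.000317) and not in the other (0.189, 0.277 and 0.136).

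Averaged over both KO lines in vehicle, the Hippo list had no call with or without the block and a median of 0.03, near the 0.04 of all tested genes and above the -0.14 of the 10 genes. The target list had a median of -0.35, with 0 higher and 1 lower without the block and 0 higher and 5 lower with it, against 0.344% and 6.18% of all genes called in either direction. IGFBP3, an insulin-like growth factor binding protein, had an FPKM of 106 and 130 in control vehicle, 3.85 and 18.8 in KO1 and 12.4 and 29.9 in KO2. Its log2 fold change was -3.06 (limma, SE 0.62, adjusted p 0.12) and -2.65 with the block (adjusted p 0.000947). CCDC80, a matrix protein, had 8.33 and 10.4 in the control, 1.70 and 2.51 in KO1 and 4.29 and 5.14 in KO2, and fell by 1.30 on the log2 scale (SE 0.22, adjusted p 0.046). CRIM1, a transmembrane protein that binds BMPs, had -0.89 (adjusted p 1) and -0.98 with the block (adjusted p 0.0151). VGLL3 of the cofactor list, whose median was 0.42, had 0.79 (adjusted p 1) and 0.69 with the block (adjusted p 0.0494).

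**Figure D5:**
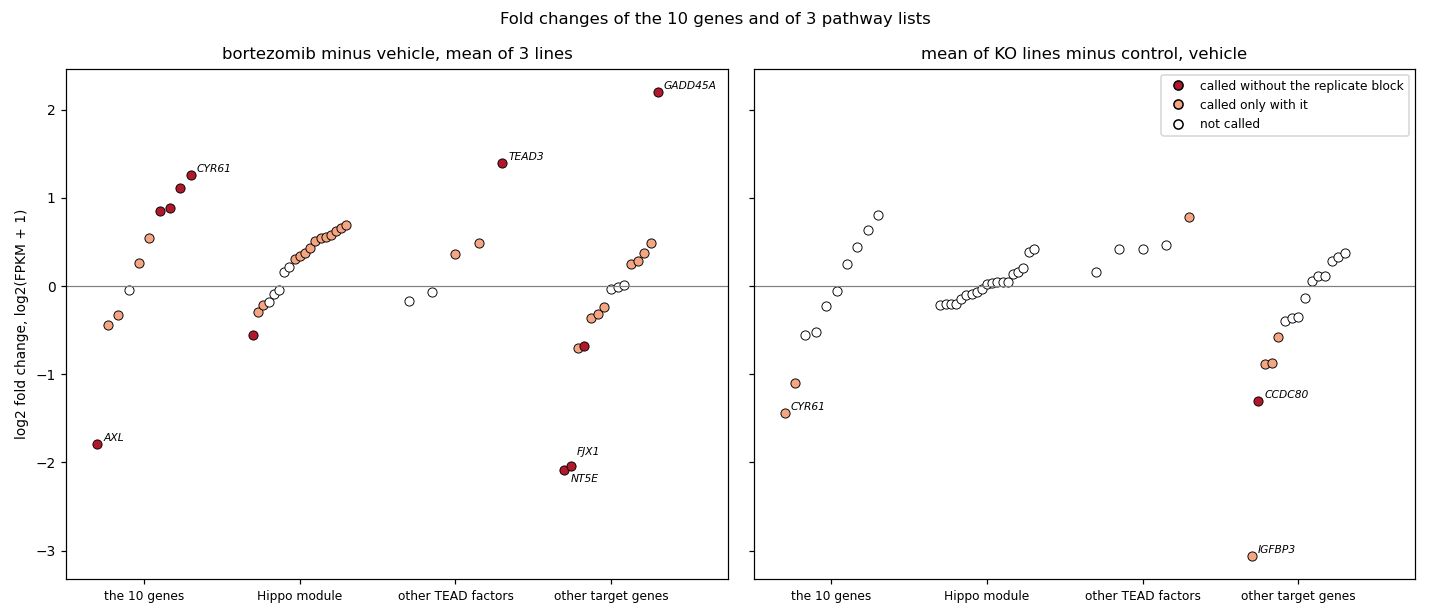
Log2 fold changes (vertical axis) of the 10 genes and of 3 pathway lists, each point a gene, for bortezomib averaged over the 3 lines and for the average of KO1 and KO2 in vehicle, with the fill showing whether it was called without the block, only with it or not at all. With bortezomib GADD45A (2.20) and TEAD3 (1.39) lie above the 10 genes and NT5E (-2.09) and FJX1 (-2.04) below them, and in the KO lines IGFBP3 (-3.06) is lowest.

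Likeness of pattern was measured as Pearson's r of log2(FPKM + 1) over the 12 libraries, which share treatments, lines and the R2 difference. Among the 10 genes CTGF was most like CYR61 (0.75), TEAD1 most like AMOTL2 (0.93), LATS2 most like TEAD1 (0.89), YAP1 most like WWTR1 (0.86) and AMOTL1 most like YAP1 (0.85). ANKRD1 and AXL stood alone, with 0.32 (to CTGF) and 0.13 (to AMOTL1) as their highest values, and AXL and LATS2 had -0.89. Of all tested genes the 2 most like CTGF were FAM134B (0.95) and FLT4 (0.91). Those most like CYR61 were BVES (0.91), DGAT2 (0.91) and MERTK (0.89), the last a receptor of the same family as AXL. Those most like ANKRD1 were TMEM47 (0.92), TRIML2 (0.92) and NAA16 (0.89).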

How the data were processed

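RNA from 12 A549 libraries was read from the deposited table of FPKM, which the authors computed per gene with a gene length. Per the submitters' processing notes, CASAVA, STAR 2.5, HTSeq 0.6.1, DESeq2 and hg19 were used, in roles not given. The deposited gene positions are those of GRCh38. FPKM times length gave whole reads for 100% of values (within 0.02 of a read), 13211608 to 23819258 per library. Groups came from the labels, with 2 libraries each.

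The values were tested as log2(FPKM + 1) with the package limma (version 3.58.1, under R 4.3.3; functions lmFit, contrasts.fit and eBayes, trend on), all 12 libraries in 1 fit without a block. Genes whose mean FPKM reached 1 (12194 of 58676) entered, and p-values were adjusted by Benjamini and Hochberg over all of them. The script was tested on simulated data. Alternatives were a replicate block by title suffix, a block that sets unnumbered libraries to R1, voom on recovered reads with and without the block, a pseudocount of 0.1, a minimum of 5 or none, 3 other scalings and leaving out each library. The R2 difference correlated between all 15 pairs of groups (Pearson's r across genes 0.696 to 0.89, median 0.811), so the suffix was taken to pair the libraries.

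The 10 genes, the lists and the tests were chosen with earlier results of these data known. Named were the 10 genes, NFE2L1, up to 3 highest and 3 lowest called genes of each pathway list in the mean contrasts, and the 3 genes most like CTGF, CYR61 and ANKRD1, of which 1 is not reported here. Python 3.11.15, pandas 2.3.3, numpy 2.4.6 and matplotlib 3.10.9 were used for tables and figures. Promoter sequences are from RefSeq (GRCh38.p14).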

Additional observations from a re-analysis of the deposited data

Results flagged for a closer look

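AXL was flagged by a rule on the pairs of KO with control libraries. All 4 pairs had to go one way in vehicle and all 4 the other way with bortezomib. The counts of pairs given next therefore follow from the rule and are no separate support. In the mean of KO lines limma called AXL in neither treatment. In vehicle it was lower in 4 of 4 pairs of libraries (mean difference of log2(FPKM + 1) -0.56) and with bortezomib higher in 4 of 4 pairs (mean 0.36). The change between the treatments was 0.91 on the log2 scale. As an interaction in limma it did not pass (adjusted p 1 without the replicate block and 0.185 with it), while voom with the block gave an adjusted p of 0.0419. The pairs share control libraries, and the R2 control vehicle library had the highest AXL level of all 12. Without that library, in a fit with no block, the mean difference in vehicle was -0.03 and the interaction 0.38. Without the unnumbered control vehicle library they were -1.08 and 1.44. Such fits set KO libraries of both suffixes against 1 control library, and AXL was higher in R2 in 6 of 6 groups. In pairs of R1 with the unnumbered library the vehicle difference was -0.15 in KO1 and -0.31 in KO2. For R2 against R2 it was -0.89 and -0.87.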

How the results depend on the processing

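The replicate block raised the counts of called genes in every comparison but the interaction in limma. Of the 10 genes, the fits with the block by title suffix, with unnumbered libraries set to R1 and with voom and the block called 4, 3 and 5 for bortezomib in the control line, 5, 7 and 7 in KO1, 6, 6 and 7 in KO2, and 9, 8 and 9 in the mean of the 3 lines. For KO against control in vehicle they called 2, 3 and 5 in KO1, 3, 2 and 5 in KO2 and 2, 3 and 6 in the mean, and 2, 2 and 4 for the mean in bortezomib. The fit with unnumbered libraries set to R1 called 32.5% of all genes for bortezomib in the control line and 27.9% in KO1. It called 27% in KO2 and 54.9% in the mean of the 3 lines. For KO against control in vehicle it called 7.96% in KO1, 4.89% in KO2 and 8.21% in the mean, and 12.7% for the mean in bortezomib. Shares with the block by suffix are given above, and those for voom are not given here. The interaction had 2 with voom and the block and 0 otherwise. Without a block limma called 5 for the mean bortezomib response and 0 elsewhere.

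With no filter on low values the mean bortezomib response kept 2 calls (CYR61 and AXL). CTGF was also lost without mitochondrial genes, and LATS2 with a minimum of 5 or a common FPKM sum. Leaving out 1 library gave 1 to 4 calls, and 0 to 0 in every other comparison. There were 3 calls without the unnumbered or R2 control vehicle library or the R2 vehicle library of KO1 or KO2, and 4 without the unnumbered control bortezomib library. There were 2 without control bortezomib R2, KO1 vehicle R1, KO1 bortezomib R1 or KO2 bortezomib R1, and 1 without KO1 bortezomib R2, KO2 vehicle R1 or KO2 bortezomib R2. The AXL decrease was called in all 23 settings.

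Some values changed sign, none of them called. Not all of these were near 0, as YAP1 in the KO mean in vehicle averaged 0.45 over its 4 pairs of like suffix. The fits with a library left out had no block, so the group that lost a library kept only 1 suffix. LATS2 in the KO mean in vehicle was 0.027 with the block and 0.033 with voom and the block, and -0.36 to 0.24 with a library left out. With a library left out TEAD1 for bortezomib in KO1 ran from -0.27 to 0.89, YAP1 for the mean response from -0.25 to 0.17 and ANKRD1 for KO1 in vehicle from -0.21 to 0.55. In the KO mean in vehicle TEAD1 ran from -0.67 to 0.21, YAP1 from -0.064 to 0.96 and WWTR1 from -0.34 to 0.85. The median of all genes shifted by at most 0.25 with a library left out and by at most 0.10 otherwise. The cause of these changes was not tested. With 2 libraries a group, and 46 reads for ANKRD1 in the lowest library, smaller differences cannot be told from the spread.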
